A study of Mus musculus with 4 samples.

Results

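ZBP1, the Z-nucleic acid sensor targeted in this experiment, was described together with 8 genes of the cell death machinery around it, Ripk1, Ripk3, Mlkl, Casp8, Fadd, Cflar, Adar and Casp6. These 9 genes, of 24346 in the expression table, were grouped by the known roles of their proteins. RNA-seq was performed on mBMSCs, bone marrow stromal cells grown by adherence from the femurs of C57BL/6 mice 3 months of age (C57BL/6J in the methods). The cells were transfected with a scrambled siRNA (siScr, 2 samples) or with siRNA against ZBP1 (siZBP1, 2 samples), and RNA was taken after 72 h. The sources used here name no cell death stimulus for either group, and which of the study's siRNAs against ZBP1 was sequenced is not stated. The values are FPKM, fragments scaled to transcript length and to the mapped fragments of the library, so that levels of different genes are per length.

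ZBP1 binds nucleic acids in the left-handed Z form through its Zα domains and recruits the kinase RIPK3 through a short interaction motif called RHIM, which RIPK1 also carries. RIPK3 phosphorylates MLKL, which then ruptures the plasma membrane in necroptosis. Caspase-8, held by the adaptor FADD and paired with cFLIP (encoded by Cflar), cleaves RIPK1 and RIPK3 and restrains this route. ADAR1 edits double-stranded RNA and has a Zα domain of its own, through which it limits ZBP1 activation, and caspase-6 has been linked to the assembly of ZBP1 complexes.

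The promoter windows of the members that changed besides Zbp1 are shown to give the sequence context of their starts, from RefSeq on GRCm38.p6, each reaching 250 bases before and 50 bases after an annotated start. Windows were found for 8 of the 9 genes, and Zbp1 was not among them. Capitals mark AANNGAAA, the core read by interferon regulatory factors, on either strand. The Casp8 window (chr1:58802252-58802551, plus strand) lies inside the longest annotated span of the gene and holds 2 cores.
Casp8: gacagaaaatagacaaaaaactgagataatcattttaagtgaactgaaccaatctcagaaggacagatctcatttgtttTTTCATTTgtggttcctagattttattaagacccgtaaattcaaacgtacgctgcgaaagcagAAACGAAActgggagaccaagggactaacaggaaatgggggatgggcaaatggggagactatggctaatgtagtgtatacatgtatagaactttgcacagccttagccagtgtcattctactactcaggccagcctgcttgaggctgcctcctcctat
The Casp6 window (chr3:129901165-129901464, plus strand) spans the annotated start of the gene and holds none.
Casp6: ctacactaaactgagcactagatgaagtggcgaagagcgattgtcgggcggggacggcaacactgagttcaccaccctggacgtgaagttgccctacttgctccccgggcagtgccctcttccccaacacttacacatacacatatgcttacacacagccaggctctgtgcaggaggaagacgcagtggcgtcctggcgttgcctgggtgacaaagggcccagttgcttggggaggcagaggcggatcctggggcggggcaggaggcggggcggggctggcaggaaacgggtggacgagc
Of the 3 Adar windows, the one at the start farthest downstream (chr3:89730468-89730767, plus strand) holds 1 core, which lies after the start.
Adar: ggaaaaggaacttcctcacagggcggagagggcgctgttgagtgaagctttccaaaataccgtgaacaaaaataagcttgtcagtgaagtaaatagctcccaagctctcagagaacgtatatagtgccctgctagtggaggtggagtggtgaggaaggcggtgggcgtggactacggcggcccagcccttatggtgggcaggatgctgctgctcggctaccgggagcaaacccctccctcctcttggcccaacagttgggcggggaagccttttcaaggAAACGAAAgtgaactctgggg
The core was found in 4 of the 11 windows of the 8 genes, those of Adar, Casp8, Cflar and Ripk1, and in 23.9% of all 32851 promoter windows. The word CTTTG followed by AA, AT, TA or TT, read by TCF/LEF factors of the Wnt pathway, were found on either strand in 1 of the 11 windows, that of Ripk3, and in 16.9% of all windows. These matches describe the letters alone.

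Within the set, Zbp1 and Adar were lower and Casp8 and Casp6 higher in siZBP1 cells, while Ripk1, Ripk3, Mlkl, Fadd and Cflar did not pass the test. The test was limma, run on log2(FPKM + 1). It covered the 11959 genes averaging 1 FPKM or more, which all 9 genes reached, and a gene was called at a Benjamini-Hochberg adjusted p under 0.05. Of the 2 of 9 that fell, Zbp1 is the siRNA target, whose fall the experiment was built to cause. Among the 8 other genes 1 fell, beside 14.8% of all tested genes called lower. The same 8 genes held the 2 that rose, beside 13.5% called higher. Values of the groups did not overlap for 7 of 9 genes, against 68.4% of all tested genes, a share too near to be a result about these genes. Zbp1, the siRNA target, alone was changed over 1.5-fold. Of the 16281 genes with both group means above 0, 13.8% were lower by that ratio. The median log2 fold change was 0.18 over the 8 genes other than Zbp1 and 0.00 over all tested genes.

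The libraries were roughly estimated at 14 and 21 M fragments in siScr and 10 and 18 M fragments in siZBP1, from the spacing of the lowest values. Whether the replicates were separate cultures is not stated, so that the p-values measure only the spread between these samples. Two-sided exact permutation p-values of single genes start at 0.333 in this design, and the adjusted p-values rest on the variance shared between genes. The cultures carried strong macrophage markers, whose summed level over 20 genes was 11282 and 12240 FPKM in siScr and 16678 and 15939 FPKM in siZBP1. Of these markers 12 rose (60.0%, beside 13.5% of all tested genes) and none fell by limma (beside 14.8%), with 1 lower at an unadjusted p under 0.05, and their median log2 fold change was 0.33. Lyz2 made the largest part of the sum, with means of 3230 FPKM in siScr and 5636 FPKM in siZBP1, and was called higher. The other 8 markers, Ptprc, Adgre1 and Spi1 among them, were not called. The 11 mesenchymal markers summed to 5620 and 4693 FPKM in siScr and 3230 and 3270 FPKM in siZBP1. By limma 5 were lower (45.5%, beside 14.8% of all tested genes) and 1, Nt5e, was higher (9.09%, beside 13.5%). Most of this sum came from 2 collagens. Col1a1 had means of 2793 FPKM in siScr and 1160 FPKM in siZBP1 and was called lower. Col1a2, at 1949 and 1820 FPKM, was not called. The part of these shifts in any result was not tested, and in bulk RNA fewer cells of a type cannot be told apart from less RNA per cell. Of the markers of other marrow cells, 2 of 7 lymphoid genes (Cd3g among them) and 3 of 6 neutrophil genes (S100a9, Mpo and Elane) were at 0 in every sample. Cd4, listed as lymphoid, was at 3.66 and 3.68 FPKM in siScr and 5.61 and 5.33 FPKM in siZBP1 and was called higher. The neutrophil gene S100a8 was at 0.434 and 0.322 FPKM in siScr and 0.597 and 4.52 FPKM in siZBP1, high in siZBP1 replicate 2 only, and was not called.

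**Figure D1:**
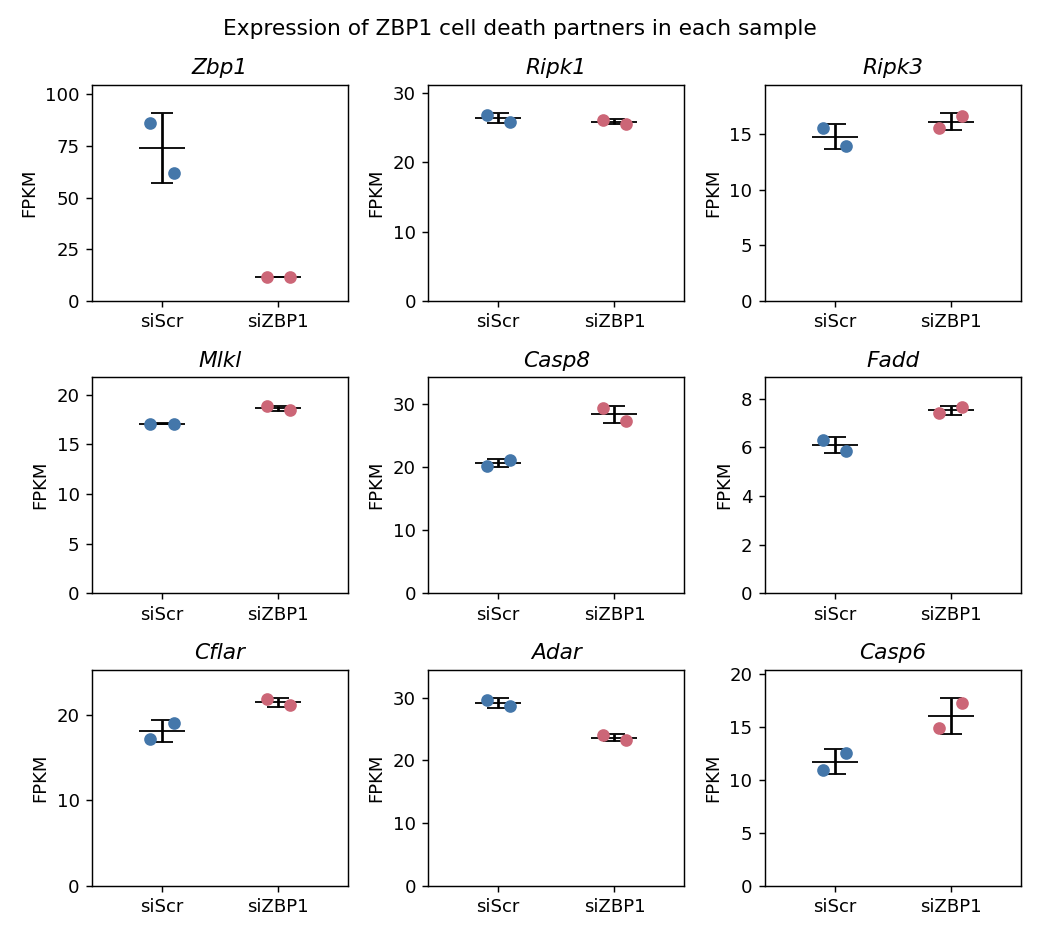
Expression in FPKM (vertical axes, each from 0) of the 9 genes in the 2 siScr (blue) and 2 siZBP1 (red) samples, with the mean as a long line and the SD as a bar. Zbp1 fell from 74.0 to 11.6 FPKM on average, Adar was lower in both siZBP1 samples, Casp8 and Casp6 were higher in both, and Ripk1 and Ripk3 overlapped.

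Zbp1 (chromosome 2, 173206612 to 173218923 on the minus strand of GRCm38) was measured at 86.0 and 62.0 FPKM in the siScr samples and at 11.5 and 11.6 FPKM in the siZBP1 samples. Both siZBP1 values lay far below both siScr values, and the siScr replicates differed from each other far more than the siZBP1 replicates. The group means were 74.0 ± 17.0 (SD, n = 2) and 11.6 ± 0.101 FPKM (SD, n = 2), a level 6.40-fold lower. The transcript remained detectable in both siZBP1 samples. The limma log2 fold change was -2.56 (95% interval -2.98 to -2.14, adjusted p = 0.00322). Leaving out siZBP1 replicate 1 gave a limma adjusted p of 0.0618 and leaving out siZBP1 replicate 2 gave 0.0510, with the change at -2.55 and -2.57.

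In siScr cells Zbp1 had the highest level of the set, followed in order by Adar, Ripk1, Casp8, Cflar, Mlkl, Ripk3, Casp6 and Fadd. Each neighbouring pair in that order had siScr values that did not overlap. In siZBP1 cells Casp8 ranked first and Ripk1, Adar, Cflar, Mlkl, Ripk3, Casp6, Zbp1 and Fadd followed. In that order only Ripk3 and Casp6 had overlapping values. The mean level of Zbp1 over all samples stood at percentile 84.2 of the tested genes, that of Ripk3 at 58.2 and that of Mlkl at 62.7. Fadd was the least abundant member in both groups, at percentile 33.0.

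The kinases and the executioner of necroptosis showed small differences that did not pass the test. Ripk1, the kinase that can pass a signal to either survival or death, was at 26.9 and 25.9 FPKM in siScr and 26.1 and 25.6 FPKM in siZBP1. Its groups overlapped, with a limma log2 fold change of -0.03 (95% interval -0.16 to 0.10, adjusted p = 0.694). Ripk3, the kinase that ZBP1 engages, was at 15.6 and 14.0 FPKM in siScr and 15.6 and 16.7 FPKM in siZBP1. The lower siZBP1 value lay just below the higher siScr value, and the log2 fold change was 0.12 (95% interval -0.08 to 0.32, limma adjusted p = 0.308). Mlkl, the pore-forming effector, was at 17.1 and 17.0 FPKM in siScr and 18.8 and 18.5 FPKM in siZBP1. Both siZBP1 samples were above both siScr samples by a small margin, with a mean 9.18% higher, a log2 fold change of 0.12 (95% interval -0.01 to 0.25) and a limma adjusted p of 0.141. The intervals of Ripk1, Ripk3 and Mlkl thus all lay within 0.32 of 0 on the log2 scale.

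Caspase-8 and caspase-6 were the members that rose. Casp8 (chromosome 1, 58795374 to 58847503), encoding the initiator caspase that cuts RIPK1 and RIPK3, was at 20.2 and 21.1 FPKM in siScr and 29.3 and 27.3 FPKM in siZBP1. Its groups were well separated, with means of 20.6 ± 0.631 and 28.3 ± 1.4 FPKM (SD, n = 2), a rise of 37.2%. The limma log2 fold change was 0.44 (95% interval 0.28 to 0.59, adjusted p = 0.0107). The adjusted p was 0.0521 without siScr replicate 1, 0.0997 without siZBP1 replicate 1 and 0.0725 without siZBP1 replicate 2, with the change between 0.39 and 0.49.

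Casp6 (chromosome 3, 129901425 to 129914103), encoding an executioner-type caspase, was at 10.9 and 12.5 FPKM in siScr and 14.9 and 17.2 FPKM in siZBP1. Both siZBP1 values were above both siScr values, but the replicates within each group were farther apart than those of Casp8. The means were 11.7 ± 1.16 and 16.1 ± 1.68 FPKM (SD, n = 2), a rise of 37.0%, and the limma log2 fold change was 0.42 (95% interval 0.15 to 0.70, adjusted p = 0.0441). The call was lost when any 1 sample was left out, at limma adjusted p of 0.148 and 0.0585 without siScr replicates 1 and 2 and 0.119 and 0.189 without siZBP1 replicates 1 and 2. It was also lost, at 0.0507, when the filter was a mean of 0.1 FPKM. The summed macrophage markers were higher in the same samples as Casp8 and Casp6, and their part in these rises was not tested.

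The partners of caspase-8 lay in the same direction without passing the test. Fadd, the death domain adaptor that recruits caspase-8, was at 6.31 and 5.86 FPKM in siScr and 7.39 and 7.66 FPKM in siZBP1. Its groups did not overlap, with a mean 23.6% higher, a log2 fold change of 0.27 (95% interval 0.07 to 0.47) and a limma adjusted p of 0.0606. Cflar, the gene of the catalytically inactive partner cFLIP, was at 17.2 and 19.1 FPKM in siScr and 21.9 and 21.1 FPKM in siZBP1. Both siZBP1 values were higher, with a mean 18.4% above that of siScr, a log2 fold change of 0.23 (95% interval 0.06 to 0.41) and a limma adjusted p of 0.0643. Cflar (chromosome 1, 58711508 to 58758884, plus strand) lies beside Casp8 on the same strand.

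Adar was the one member besides the target that fell. Its gene (chromosome 3, 89715022 to 89753446, plus strand) encodes the RNA editing enzyme ADAR1, the counterpart of ZBP1 among mammalian proteins with a Zα domain. Adar was at 29.7 and 28.6 FPKM in siScr and 24.0 and 23.2 FPKM in siZBP1. The groups were separated by more than the difference within either, and the means of 29.2 ± 0.779 and 23.6 ± 0.577 FPKM (SD, n = 2) made a level 1.24-fold lower. The limma log2 fold change was -0.29 (95% interval -0.42 to -0.16, adjusted p = 0.0183). It was called with siScr replicate 2 left out, at 0.0398, and not with siScr replicate 1 left out, at 0.0684, or with siZBP1 replicate 1 or 2 left out, at 0.116 and 0.121. Adar overlaps Chrnb2 on the other strand over 7252 bases and Fadd overlaps an antisense transcript over 4195 bases. Ripk1 and Mlkl also overlap genes on the other strand, by up to 1366 and 394 bases. No strand setting of the counting is stated, so reads of such pairs cannot be told apart.

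**Figure D2:**
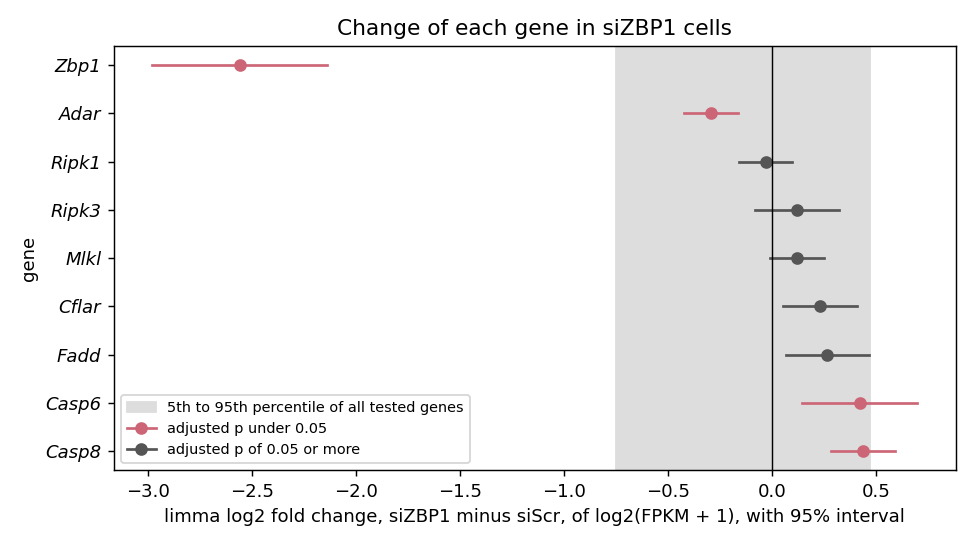
Limma log2 fold change (siZBP1 minus siScr, horizontal axis) of each gene with its 95% interval, red where the adjusted p was under 0.05, over a grey band from the 5th to the 95th percentile of all tested genes (-0.75 to 0.47). Zbp1 at -2.56 lies outside the band, and the estimates of the 8 other genes, from -0.29 to 0.44, lie inside it.

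Short matches to one siRNA were present in 3′ UTRs of the set. The word CAGCCAA, complementary to bases 2 to 8 of the antisense strand of siZBP1-1, occurred in the 3′ UTR of 13.2% of 10868 tested genes, and in 2 of the 9 members. These matches are shown because they fall in the member that was lower and in a member that was not called, with the word in capitals and GENCODE M21 transcripts on GRCm38.
Adar, 5 coding transcripts, word at chr3:89751339-89751345: gtggggtcCAGCCAAgtccccac
Adar, 2 coding transcripts, word at chr3:89752755-89752761: tctttgcaCAGCCAAatcatcct
Fadd, 1 coding transcript, word at chr7:144577899-144577905, minus strand: gctttgctCAGCCAAagccaagt
The word TCCGGGA of siZBP1-2 was in 2.74% of genes and in none of the members. Over these 10868 genes the median log2 fold change was -0.09 for the 1433 genes with the siZBP1-1 word and 0.02 for those without it, and 0.01 both with and without the siZBP1-2 word. Adar at -0.29 and Fadd at 0.27 lay on opposite sides of the siZBP1-1 medians. The genes with and without a word were not matched for the length of their 3′ UTRs, and which siRNA was sequenced is not stated. Whether the siRNA bears on either transcript directly was not tested.

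Ratios between members were taken within each sample, which leaves out differences in scaling between libraries, and are given without a test. The ratio of Cflar to Casp8, the inhibitor over its target, was 0.853 and 0.905 in siScr and 0.745 and 0.773 in siZBP1, lower in both siZBP1 samples. The ratio of Ripk3 to Casp8, a necroptotic kinase over the caspase that cuts it, was 0.772 and 0.662 in siScr and 0.531 and 0.610 in siZBP1. Its groups did not overlap but were apart by less than the spread within either. The ratio of Ripk3 to Ripk1 was 0.579 and 0.539 in siScr and 0.596 and 0.651 in siZBP1. The groups of this ratio were likewise apart by less than their own spread. Mlkl over Ripk3 was 1.10 and 1.22 in siScr and 1.21 and 1.11 in siZBP1, with full overlap. Zbp1 over Adar, the pair of Zα proteins, was 2.89 and 2.17 in siScr and 0.478 and 0.501 in siZBP1, so that the more abundant transcript of the pair was Zbp1 in siScr cells and Adar in siZBP1 cells.

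**Figure D3:**
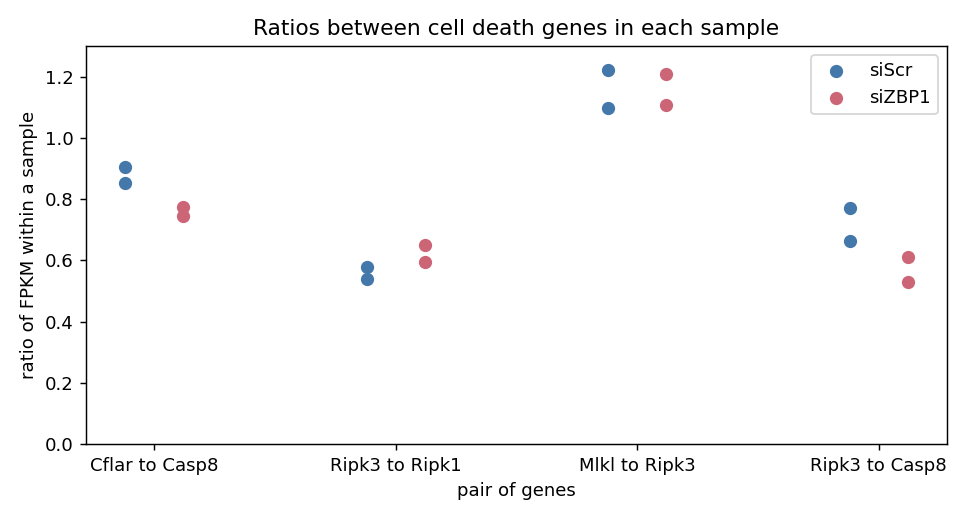
Ratio of FPKM between pairs of members within each sample (vertical axis, from 0), in siScr (blue) and siZBP1 (red). Cflar to Casp8 and Ripk3 to Casp8 were lower in both siZBP1 samples, Ripk3 to Ripk1 was higher in both, and Mlkl to Ripk3 overlapped.

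The genes whose 4 values were most like those of Zbp1 were taken as the 5 with the smallest Euclidean distance between deviations of log2(FPKM + 1) from the gene's mean. They were Omd (distance 0.0744), Mir8102 (0.114), Timp3 (0.148), Sp7 (0.170) and Mme (0.189). Mir8102 was at 6.36 and 4.49 FPKM in siScr and at 0 and 0 FPKM in siZBP1. It passed the 1 FPKM filter only through its siScr values, and its distance depends on the 1 added before the log. Omd, which encodes the bone proteoglycan osteomodulin, was at 15.3 and 10.0 FPKM in siScr and 1.29 and 1.32 FPKM in siZBP1. Sp7, the gene of the osteoblast transcription factor osterix, was at 34.6 and 22.9 FPKM in siScr and 3.33 and 3.82 FPKM in siZBP1. All 5 genes had a higher siScr replicate 1 than replicate 2, as Zbp1 had. They were chosen by these 4 values, so this likeness is part of the choice. Timp3, a metalloproteinase inhibitor of the matrix, was at 902 and 732 FPKM in siScr and 128 and 140 FPKM in siZBP1. Likeness over 4 samples is a description of these libraries. None of the other 8 members was among the 5. This follows from their log2 fold changes, from -0.29 to 0.44, which lie far from the -2.56 of Zbp1.

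The wider pathway was examined in 8 lists with 135 genes, of which 128 were tested, 10 were lower (7.81%) and 26 higher (20.3%) by limma, beside 14.8% and 13.5% of all tested genes. The 26 include Il1b and Adarb1, which passed the 1 FPKM filter only through their siZBP1 values. The calls of listed genes depended on single samples, most of all on the siZBP1 replicates. The calls over all tested genes depended on them in the same way. Among the receptors and ligands upstream of these kinases, 3 of 10 tested genes rose (30.0%, beside 13.5% of all tested genes) and none fell (beside 14.8%), with 1 lower at an unadjusted p under 0.05. Fas, the death receptor that assembles FADD and caspase-8, was at 5.55 and 8.20 FPKM in siScr and 15.4 and 13.8 FPKM in siZBP1. The groups did not overlap, with a log2 fold change of 1.00 (standard error 0.178, limma adjusted p = 0.0204). Tlr3, which senses double-stranded RNA and signals through a RHIM adaptor, rose by 0.33 on the log2 scale (limma adjusted p = 0.0162), and Tlr4 by 0.18 (limma adjusted p = 0.0356). Fasl, the gene of the Fas ligand, was listed at 0 in every sample. Tnf was at 9.93 and 10.0 FPKM in siScr and 9.41 and 9.03 FPKM in siZBP1 and was not called.

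Of 22 genes that set the ubiquitin and kinase checkpoints of RIPK1, 4 were lower, 4 higher and 14 not called. The share of 18.2% each way stands near the 14.8% lower and 13.5% higher of all tested genes. Ikbke, a kinase related to TBK1, had a log2 fold change of 0.63 (limma adjusted p = 0.0123). Birc3, a ubiquitin ligase for RIPK1, was at 7.77 and 7.75 FPKM in siScr and 11.1 and 11.04 FPKM in siZBP1, a log2 fold change of 0.46 (limma adjusted p = 0.0103). Ikbkg, the gene of the scaffold NEMO, changed the other way, with a log2 fold change of -0.48 (limma adjusted p = 0.0129). Downstream, 5 of 21 tested genes of MLKL cofactors and ESCRT-III membrane repair rose (23.8%, beside 13.5% of all tested genes) and none fell (beside 14.8%), with 2 lower at an unadjusted p under 0.05. They included Tsg101 (0.32 on the log2 scale, limma adjusted p = 0.0167), Ipmk (0.28, adjusted p = 0.0402) and Chmp1a (0.27, adjusted p = 0.0202).

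Casp8 and Casp6 were not the sole caspases to rise. Among 16 tested genes of other caspases and apoptosis execution, 4 rose (25.0%, beside 13.5% of all tested genes) and none fell by limma (beside 14.8%), with 2 lower at an unadjusted p under 0.05. Apaf1, the scaffold of the apoptosome, was at 11.2 and 11.3 FPKM in siScr and 19.6 and 19.5 FPKM in siZBP1, a log2 fold change of 0.75 (limma adjusted p = 0.00343). Casp4, the sensor of intracellular lipopolysaccharide, and Casp12 had log2 fold changes of 0.74 and 0.53 (limma adjusted p = 0.00421 and 0.00803). In the BCL2 family 3 of 15 tested genes fell and 3 rose, 20% each way and near the 14.8% and 13.5% of all tested genes. Bok, a pro-apoptotic relative of Bax and Bak1, was at 8.45 and 6.90 FPKM in siScr and 1.41 and 1.38 FPKM in siZBP1, a log2 fold change of -1.85 (limma adjusted p = 0.00324). The BH3-only genes Pmaip1 and Bmf moved the other way, by 0.89 and 0.78 on the log2 scale (limma adjusted p = 0.00343 and 0.0123).

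In the list of pyroptosis and inflammasome genes 3 of 10 rose (30.0%, beside 13.5% of all tested genes) and none fell by limma (beside 14.8%), and none was lower at an unadjusted p under 0.05 either. Il1b, the gene of the cytokine IL-1β, was at 0.714 and 1.02 FPKM in siScr and 3.10 and 5.77 FPKM in siZBP1. Its log2 fold change was 1.5 on a low level (limma adjusted p = 0.0210). Its siScr mean of 0.867 FPKM was below the 1 FPKM filter, which it passed only through its siZBP1 values. Mefv, which was not called, passed in the same way, with a siScr mean of 0.935 FPKM. The share of this list that rose is therefore not read against that of all tested genes. Nlrp3, the inflammasome sensor that ZBP1 signaling can engage, had a log2 fold change of 0.55 (limma adjusted p = 0.0256). Pycard, the adaptor ASC, had one of 0.37 that was not called (limma adjusted p = 0.0528). Il1b, Nlrp3 and Pycard are also expressed by macrophages, whose markers summed higher in the same samples. The part of the macrophage markers' shift in these values was not tested.

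Adar was examined beside the other genes that handle Z-RNA and double-stranded RNA, of which 1 of 13 tested fell, 1 rose (7.69% each, beside 14.8% and 13.5% of all tested genes) and 11 were not called. Adarb1, the gene of the related editing enzyme ADAR2, was the 1 that rose. It was at 0.554 and 0.543 FPKM in siScr and 1.53 and 1.52 FPKM in siZBP1, a log2 fold change of 0.70 (limma adjusted p = 0.0208). Its siScr mean of 0.548 FPKM was below the 1 FPKM filter, which it passed only through its siZBP1 values. Its call is therefore not read against that of Adar, nor the share it makes against that of all tested genes. Zfr had a log2 fold change of -0.14 that was not called (limma adjusted p = 0.0643). Of the 21 tested genes of the interferon response, to which Zbp1 and Adar also belong, 2 fell (9.52%, beside 14.8% of all tested genes), 3 rose (14.3%, beside 13.5%) and 16 were not called. At an unadjusted p under 0.05, 9 were lower and 3 higher. The share of all tested genes at that unadjusted threshold is not given here, so these counts are not read as a result about the list. Irf7, a master factor of type I interferon genes, was at 178.5 and 130 FPKM in siScr and 65.1 and 69.1 FPKM in siZBP1, a log2 fold change of -1.17 (limma adjusted p = 0.0107). Ifit1 fell by 0.44 on the log2 scale (limma adjusted p = 0.0356), while Irf1 rose by 0.40 (limma adjusted p = 0.0327). Median log2 fold changes were -0.08 for the interferon list and -0.06 for the double-stranded RNA list, and between 0.07 and 0.26 for the other 6.

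**Figure D4:**
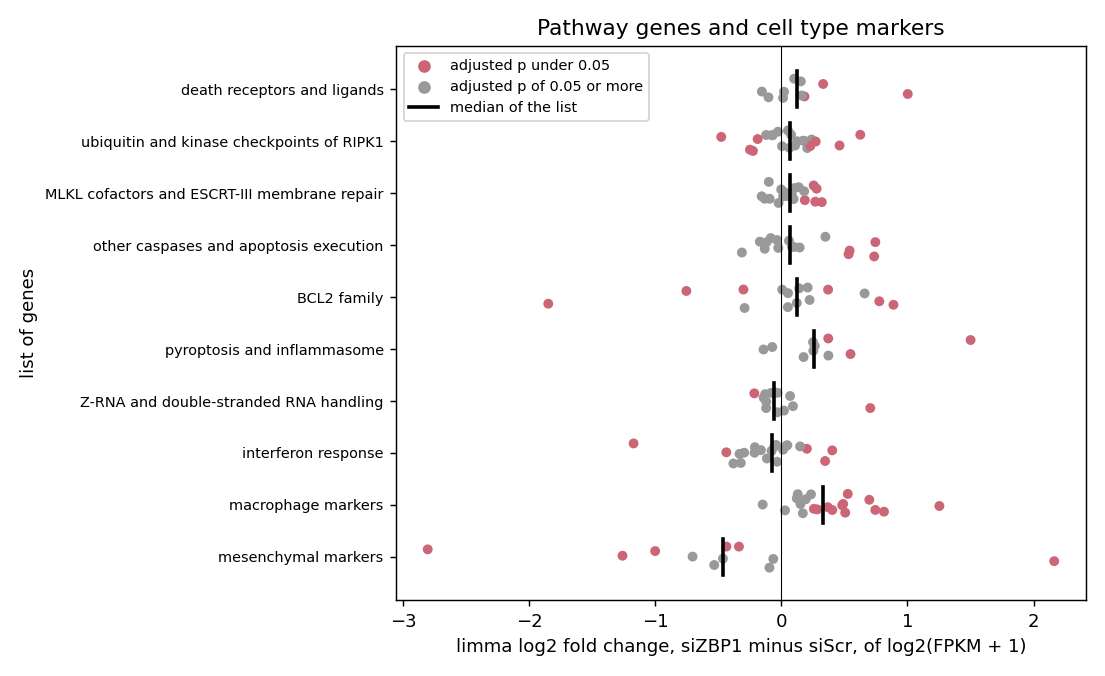
Limma log2 fold change (siZBP1 minus siScr, horizontal axis) of each tested gene of the 8 pathway lists and of the macrophage and mesenchymal markers, red where the adjusted p was under 0.05, with a black bar at the median of each list. The macrophage markers have a median of 0.33 and the mesenchymal markers one of -0.46, and in the pathway lists Bok at -1.85 and Il1b at 1.5 lie farthest from 0.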

How the data were processed

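RNA was measured in 2 siScr and 2 siZBP1 samples. The authors sequenced TruSeq libraries, mapped them to mm10 with TopHat and deposited FPKM per gene and sample. The methods name HTSeq for the extraction and the submitters' processing notes name Cufflinks, and the annotation and strand setting are not given in the sources used here. Numbers of fragments are not given, so that no count test was run, and depth was only roughly estimated. In R 4.3.3, limma 3.58.1 was fitted with its variance trend to log2(FPKM + 1) of every gene averaging 1 FPKM or more, without a replicate term, and p-values were adjusted by Benjamini-Hochberg. Fold changes on this scale understate changes of low genes. Named were all 9 members, the 5 genes nearest to Zbp1 and the 3 largest changes of each list, and a few other listed genes were named after their values were seen. Some genes that this rule names are not reported here. Members and lists were chosen with earlier results of these data known. Positions came from GENCODE M21 on GRCm38. In all, 16 alternative settings were tried, and the fit was tested on simulated data. There it called 62 of 100 genes shifted by 1 on the log2 scale and 27 of 100 shifted by 0.5. Of 11759 unshifted genes it called 3. Most simulated shifts of 0.5 were thus missed there. Far fewer genes were shifted there than the 1766 lower and 1618 higher called in the real data. The adjusted threshold was therefore stricter in the simulation, and its shares do not carry over to the real fit. A gene that is not called may still have changed, within the limits of its interval. The authors' average columns equal the means of the replicates and were not used.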

Additional observations from a re-analysis of the deposited data

How the results depend on the processing

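No member changed from lower to higher or the reverse under any of the 11 alternatives that kept all samples. Zbp1, Casp8 and Adar were called in all 11, Casp6 in 7, Fadd in 3 and Cflar in 2, and Ripk1, Ripk3 and Mlkl in none. The number of members called higher was 1 with a mean of at least 0.1 FPKM, with no filter and with no variance trend, where Casp8 was left. By a ratio of means over 1.5-fold, 1 member was lower and 0 were higher. Quantile normalization moved the median of all genes by 0.043 and called Fadd as well. With each sample left out in turn, the lone sample being assumed to vary like the other group, 0 to 2 members were lower and 0 to 2 higher by limma, 48 to 1467 of all genes were lower and 22 to 1248 higher, and 0 to 13 listed genes were lower and 0 to 19 higher. Without either siZBP1 replicate no member was called by limma, although 2 were lower at an unadjusted p under 0.05 in both cases, and 2 and 1 were higher. A fit with the replicate block called 2 members lower and 2 higher, as did the fit without it, with 1654 and 1465 of all genes. Differences between the replicates correlated at -0.063 between the groups across genes. Whether samples with the same replicate number shared a culture or batch is not stated, and this correlation cannot decide it.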
